A study of Mus musculus with 7 samples.

Results

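Oxidative phosphorylation is the last stage of respiration in mitochondria, and the genes described here are the nuclear genes for the parts of its 5 enzyme complexes. They were matched by gene symbol in the table of the mouse arrays, with earlier results of these data known. For complex I the symbols began with Nduf, a letter a, b, c, s or v and a number. The others were Sdha to Sdhd (complex II) and symbols beginning with Uqcr (complex III), Cox4 to Cox8 with a letter a, b or c (complex IV) or Atp5 (complex V). Of 82 symbols that matched, Cox6a2 was left out, which left 81 of the 20719 genes measured: 37 of complex I, 4 of complex II, 8 of complex III, 15 of complex IV and 17 of complex V. Where a gene had several transcript clusters (sets of probes for 1 locus), the brightest on average across the 7 arrays was used.

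Complexes I and II take electrons from NADH and succinate and pass them to ubiquinone, complex III passes them on to cytochrome c, and complex IV passes them to oxygen. Complexes I, III and IV pump protons, and complex V, the ATP synthase, uses the returning protons to make ATP. In steroid-producing adrenal cells, mitochondria also hold the enzymes that open and close steroid synthesis, which draw their electrons from NADPH through a separate chain of ferredoxin reductase and ferredoxin.

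Affymetrix mouse gene arrays were used to measure expression in GFP-positive cells from adrenal glands of male C57BL/6J mice at 6 weeks of age. SF1+ (4 arrays) came from Sf1:eGFP mice, in which a genomic fragment of Nr5a1, the gene for the steroidogenic transcription factor SF1, drives eGFP. Wnt+ (3 arrays) came from TCF/Lef:H2B-GFP mice, in which a histone and GFP fusion is driven by repeated TCF/LEF sites with a minimal Hspa1b promoter, a reporter of canonical Wnt signalling. Each array held amplified RNA, made from 5 ng, of 1 sort of 10 pooled adrenals. The labels state 4 sorts for either genotype, and 3 Wnt+ sorts were analysed here. The reporter line and the sorted population cannot be told apart, because no array of one line was sorted on the other reporter. Levels are log2 values, and a difference is the Wnt+ mean minus the SF1+ mean of such values.

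The labels call all cells adrenocortical. The 12 markers of steroidogenic cortex had a mean of 7.25 to 8.01 in SF1+ and of 8.46 to 9.05 in Wnt+, and 12 of 12 were higher in Wnt+, among them Nr5a1 itself, which was at 6.41, 5.38, 5.44 and 5.75 in SF1+ and at 6.87, 7.61 and 7.41 in Wnt+. The labelled SF1+ group thus had the lower Nr5a1. Markers of other cells differed too: the mean of 15 endothelial markers was 7.67 to 8.17 in SF1+ and 5.36 to 7.45 in Wnt+, that of 12 lymphoid markers 3.91 to 4.95 and 2.79 to 2.86, and that of 12 chromaffin markers (the catecholamine cells of the medulla) 4.37 to 5.57 and 5.65 to 6.82. In Wnt+, 15 of 15 endothelial, 12 of 12 lymphoid and 10 of 11 myeloid markers were lower, and 12 of 12 chromaffin and 9 of 12 stromal markers higher. The mean of the myeloid markers was 6.17 to 7.63 in SF1+ and 5.69 to 6.27 in Wnt+, and that of the stromal markers 4.25 to 4.98 and 4.17 to 5.40. None of these lists reads 0 on arrays, where background keeps every value above it. Such a shift cannot tell fewer cells of a type from less RNA per cell. Pearson's r between arrays over all genes, which are not independent replicates, was 0.972 to 0.983 within SF1+, 0.962 to 0.968 within Wnt+ and 0.926 to 0.969 across the groups.

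Promoter sequences were compared as a feature that the choice of members did not use. RefSeq windows from 250 bases before to 50 bases after a transcript start (build GRCm38.p6) were found for 69 of the 81 members, 75 windows in all, and were set beside all 32851 windows of the table. The motif of NRF1, a regulator of nuclear genes for mitochondrial proteins, was searched as CGCATGCG, that of GABPA, another such regulator, as CCGGAAG, that of YY1 as AAGATGGCG, the half-site read by SF1 and by the estrogen-related receptors as AAGGTCA, that of SP1 as GGGCGG and that of TCF/LEF factors as ATCAAAG, each on both strands. NRF1's letters were in 12.0% of the members' windows and in 1.87% of all windows, GABPA's in 21.3% and 8.86%, and YY1's in 12.0% and 1.40%. The SF1 and estrogen-related receptor half-site was in 10.7% of the members' windows and in 4.72% of all, the SP1 motif in 38.7% and 35.7%, and the TCF/LEF motif in 1.33% (Ndufa5 alone) and 3.73%. At least 1 of the NRF1, GABPA and YY1 motifs stood in the windows of 27 of the 69 members that have a window. Of these 27, 6 were among the 19 members with an unadjusted p under 0.05 described next. Some of the 19 may be among the 12 members without a window. The stretches below, from 150 bases before to 30 after the start and given 5′ to 3′ on the gene's strand, are those of the member with the smallest p of each complex that has a window (Ndufc1, Sdhb, Uqcrc1, Cox7a1 and Atp5d), followed by 3 members that hold the other motifs (Ndufb4, Uqcr11 and Atp5j). Capitals mark matches to the NRF1, GABPA, YY1, SF1 and TCF/LEF motifs, not to SP1. Atp5d and Atp5j have 2 windows each, and the one with the lower coordinates is shown.
Ndufc1, chr3:51408926-51409105, minus strand: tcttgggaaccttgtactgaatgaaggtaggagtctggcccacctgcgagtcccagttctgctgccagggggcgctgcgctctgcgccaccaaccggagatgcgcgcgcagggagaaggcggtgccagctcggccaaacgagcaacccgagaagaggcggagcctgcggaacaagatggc
Sdhb, chr4:140961121-140961300, plus strand: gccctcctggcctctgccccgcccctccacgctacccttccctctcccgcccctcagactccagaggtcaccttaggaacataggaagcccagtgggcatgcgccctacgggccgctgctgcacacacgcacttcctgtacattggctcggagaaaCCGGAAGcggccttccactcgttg
Uqcrc1, chr9:108936498-108936677, plus strand: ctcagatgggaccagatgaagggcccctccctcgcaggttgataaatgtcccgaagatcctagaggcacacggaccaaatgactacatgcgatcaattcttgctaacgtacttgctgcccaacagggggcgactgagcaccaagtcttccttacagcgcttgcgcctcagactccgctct
Cox7a1, chr7:30184021-30184200, plus strand: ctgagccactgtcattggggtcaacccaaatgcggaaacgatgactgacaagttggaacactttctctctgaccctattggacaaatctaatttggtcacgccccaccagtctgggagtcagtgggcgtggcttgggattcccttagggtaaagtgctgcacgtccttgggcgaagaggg
Atp5d, chr10:80142125-80142304, plus strand: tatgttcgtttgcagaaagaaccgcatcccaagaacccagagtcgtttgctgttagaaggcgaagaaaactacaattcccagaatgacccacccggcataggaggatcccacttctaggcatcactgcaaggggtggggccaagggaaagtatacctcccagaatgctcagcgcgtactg
Ndufb4, chr16:37654339-37654518, minus strand: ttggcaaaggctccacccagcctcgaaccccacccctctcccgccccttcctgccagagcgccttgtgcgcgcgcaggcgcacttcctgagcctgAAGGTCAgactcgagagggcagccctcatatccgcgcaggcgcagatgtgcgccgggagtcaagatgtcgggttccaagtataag
Uqcr11, chr10:80406792-80406971, minus strand: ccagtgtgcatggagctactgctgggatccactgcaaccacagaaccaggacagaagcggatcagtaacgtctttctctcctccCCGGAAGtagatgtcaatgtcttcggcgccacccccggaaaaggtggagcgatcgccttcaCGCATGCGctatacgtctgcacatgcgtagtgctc
Atp5j, chr16:84834947-84835126, minus strand: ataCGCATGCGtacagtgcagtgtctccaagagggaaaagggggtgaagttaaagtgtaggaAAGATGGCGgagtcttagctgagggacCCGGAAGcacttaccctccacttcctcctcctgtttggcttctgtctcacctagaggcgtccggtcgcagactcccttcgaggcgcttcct
Sdhb holds the GABPA letters from base 7 after its start, Ndufb4 the SF1 half-site 55 bases before its start, Uqcr11 the GABPA and NRF1 letters 66 and 5 bases before its start, and Atp5j the NRF1, GABPA and YY1 letters together. In Ndufc1 a YY1 match begins at base 23 after the start and runs past the end of the stretch shown, and in Uqcrc1 an NRF1 match begins at base 32, beyond it. The stretches of Cox7a1 and Atp5d hold none of these letters. A match is a run of letters and not a site shown to be bound.

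Taken one by one, no member passed the test, yet nearly all were higher in Wnt+. With limma and Benjamini-Hochberg adjustment over all genes, 0 of the 81 members had an adjusted p under 0.05, against 53 of 20719 genes (0.256%), and the lowest adjusted p of a member was 0.120. At so low a share of all genes, 0 of 81 does not set the members apart from other genes. At an unadjusted p under 0.05, 19 members were higher in Wnt+ and none (0) lower, where 7.61% of all genes were higher by the same measure. The 0 holds for the 81 members only. Cox6a2, which matched by symbol but was left out, was lower in Wnt+ by that measure. Its difference of -2.06 was larger in size than that of any member. Every Wnt+ array lay above every SF1+ array in 15 members, against 7.04% of all genes. The difference was positive in 76 of 81 members, against 54.8% of all genes, and its median was 0.33, against 0.02 over all genes. Of the members, 78 were at or above the median level of all genes on these arrays. Among all genes that bright, 11.9% were higher at an unadjusted p under 0.05 and 8.39% had groups apart in the same way. Single arrays moved the count of 19. Leaving out Wnt+ replicate 2 gave 6, SF1+ replicate 1 gave 10, SF1+ replicate 4 gave 11 and Wnt+ replicate 3 gave 40, where the same fits had 6.15%, 7.59%, 6.43% and 7.62% of all genes higher at an unadjusted p under 0.05. Without Wnt+ replicate 2, 6 of 81 members was thus near the share of all genes.

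**Figure D1:**
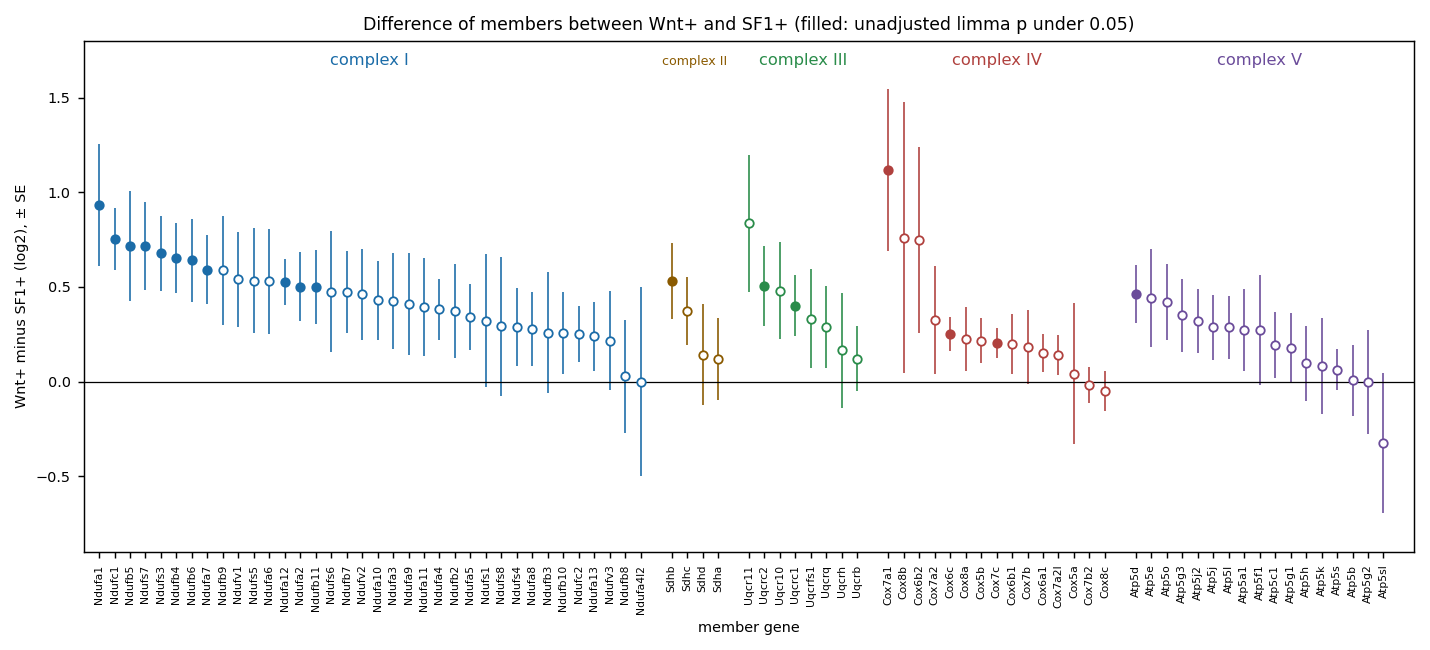
Wnt+ minus SF1+ difference of 80 of the 81 members (log2, vertical axis, bars are the standard error of the limma fit), ordered by size within complexes I to V, with filled points for an unadjusted limma p under 0.05. The points lie above 0 in 75 of them, from a highest value of 1.12 in Cox7a1 to a lowest of -0.33 in Atp5sl, and 11 of the 18 filled points are in complex I.

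The 7 arrays did not divide cleanly by group. The mean over the 81 members was 6.70, 7.10, 7.07 and 7.04 in SF1+ replicates 1 to 4 and 7.27, 7.68 and 7.05 in Wnt+ replicates 1 to 3. Wnt+ replicate 2 was the highest array and SF1+ replicate 1 the lowest, while Wnt+ replicate 3 lay within the range of SF1+. The group means were 6.98 ± 0.18 (SD, n = 4) and 7.33 ± 0.32 (SD, n = 3), a difference of 0.35. Against the SF1+ mean of each gene, the median member was higher by 0.25 in Wnt+ replicate 1, by 0.72 in replicate 2 and by 0.08 in replicate 3, and 70, 77 and 51 members respectively were above it. Of all 20719 genes, 9982, 10751 and 11290 were above their SF1+ mean in these 3 arrays. Wnt+ replicate 2 had the highest value of all 7 arrays in 71 of 81 members, against 4300 of 20719 genes and 2880 of the 10360 at or above the median level. Among SF1+ arrays, replicate 1 was the lowest in 61 members, against 6007 of 20719 genes. It was the lowest of all 7 arrays in 54, against 3050. Without Wnt+ replicate 2, 62 members had a positive difference and the median was 0.16, and without SF1+ replicate 1 these were 69 and 0.25. In the same fits 11047 and 11265 of 20719 genes had a positive difference.

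**Figure D2:**
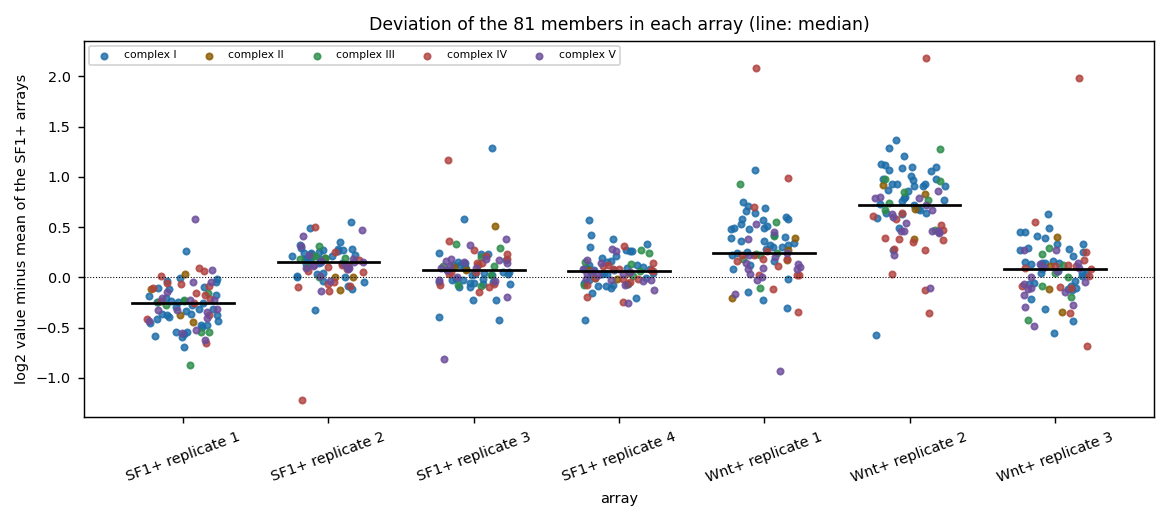
Log2 value of each member minus the mean of the 4 SF1+ arrays for that member (vertical axis), by array (horizontal axis), coloured by complex, with a line at the median of the 81 members. The median is 0.25, 0.72 and 0.08 in the Wnt+ arrays, and the points of SF1+ replicate 1 lie mostly below 0.

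By complex, the mean difference was 0.44 in complex I, 0.29 in complex II, 0.39 in complex III, 0.30 in complex IV and 0.20 in complex V. Wnt+ replicate 2 was the highest array in all 5 complexes and SF1+ replicate 1 the lowest. Wnt+ replicate 3 lay within the range of SF1+ in each complex. Wnt+ replicate 1 lay above every SF1+ array in complexes I, III and IV, and within their range in complexes II and V. Whether the complexes differed from each other was not tested.

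**Figure D3:**
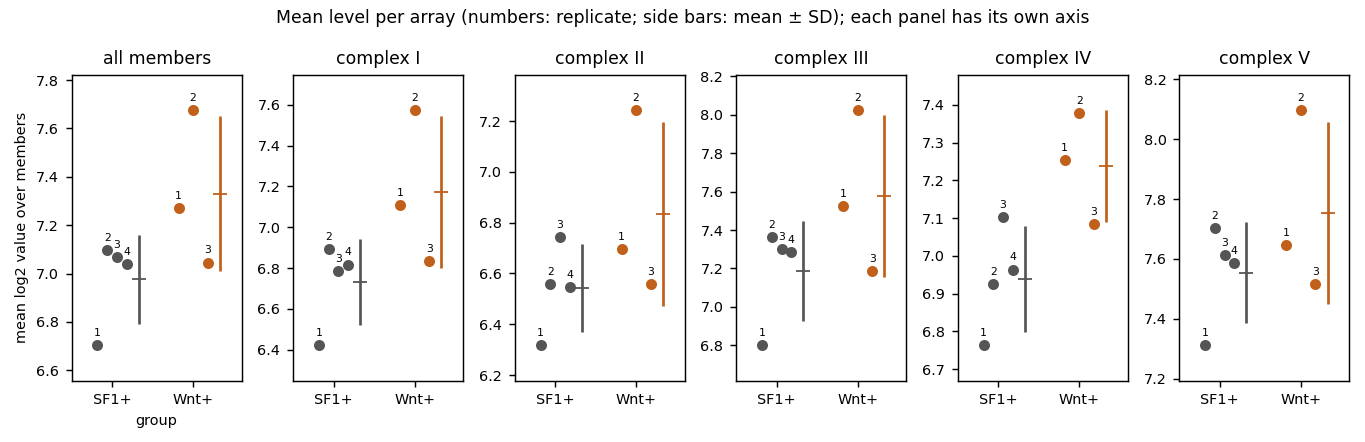
Mean log2 value over all members and over the members of each complex (vertical axis, with its own scale in each panel) in the 4 SF1+ and 3 Wnt+ arrays, numbered by replicate, with the mean and SD of each group at the side. Wnt+ replicate 2 is the highest and SF1+ replicate 1 the lowest point in every panel, and Wnt+ replicate 3 stays within the SF1+ range.

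Complex I, the NADH dehydrogenase, held most of the members with a small p. Its difference was positive in 36 of 37 members with a median of 0.45. Of the 37, 12 (32.4%) were higher at an unadjusted p under 0.05, and 8 (21.6%) had all Wnt+ arrays above all SF1+ arrays. Over all genes these shares were 7.61% and 7.04%, and over genes at or above the median level 11.9% and 8.39%. The complex mean was 6.42, 6.89, 6.79 and 6.82 in SF1+ and 7.11, 7.58 and 6.84 in Wnt+. Ndufc1, an accessory subunit of the membrane arm, had the smallest p of all members. It was at 6.99, 7.04, 6.94 and 7.04 in SF1+ and at 7.75, 8.12 and 7.39 in Wnt+. All 3 Wnt+ arrays stood clear of SF1+, whose arrays were close together, and the difference was 0.75 (SE 0.16, limma adjusted p = 0.120). A second cluster of Ndufc1 differed by 0.76. Ndufa12, an accessory subunit of the peripheral arm, was at 7.24, 7.16, 7.40 and 7.32 in SF1+ and at 7.77, 8.05 and 7.61 in Wnt+. Its groups did not overlap either (difference 0.53, SE 0.12, limma adjusted p = 0.127).

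The core subunits described here, of the arm that takes electrons from NADH to ubiquinone, were higher on average in Wnt+, but by unequal amounts. Ndufs3, of the arm that reaches ubiquinone, was at 6.15, 6.42, 6.03 and 6.42 in SF1+ and at 6.94, 7.31 and 6.53 in Wnt+, with no overlap and a difference of 0.68 (SE 0.20, limma adjusted p = 0.183). Ndufs7, which holds the last iron-sulfur cluster before ubiquinone, was at 4.72, 5.10, 4.61 and 5.56 in SF1+ and at 5.64, 5.87 and 5.63 in Wnt+. Its groups were apart only narrowly, since SF1+ replicate 4 came close to Wnt+ replicate 3 (difference 0.72, SE 0.23, limma adjusted p = 0.216). At the NADH end, Ndufv1, which binds NADH and the flavin, differed by 0.54 (SE 0.25) and its partner Ndufv2 by 0.46 (SE 0.24), and in both the groups overlapped. Ndufs1, the largest core subunit, and Ndufs8, an iron-sulfur subunit, differed by 0.32 (SE 0.35) and 0.29 (SE 0.37), and both differences turned negative without Wnt+ replicate 2, to -0.12 and -0.13.

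Accessory subunits filled the rest of the upper end. Ndufa1, a small membrane subunit encoded on the X chromosome, had the largest difference of the complex at 0.93 (SE 0.32, limma adjusted p = 0.233). Its arrays read 6.44, 7.63, 7.07 and 7.41 in SF1+ and 8.21, 8.42 and 7.59 in Wnt+. SF1+ replicate 2 was above Wnt+ replicate 3, so the groups overlapped. Ndufb4, of the far end of the membrane arm, did not overlap, at 7.31, 7.68, 7.70 and 8.01 against 8.25, 8.61 and 8.12, and differed by 0.65 (SE 0.19, limma adjusted p = 0.175). In Ndufa7, of the peripheral arm, SF1+ was at 6.18, 6.66, 6.61 and 6.58 and Wnt+ at 7.09, 7.42 and 6.79, again without overlap (difference 0.59, SE 0.18, limma adjusted p = 0.194). Ndufb5, Ndufb6, Ndufa2 and Ndufb11, accessory subunits as well, had an unadjusted p under 0.05 and differed by 0.72 (SE 0.29), 0.64 (SE 0.22), 0.50 (SE 0.18) and 0.50 (SE 0.20), and only in Ndufb6 of these 4 did the groups stand apart. Members of complex I that are not named here lay between these values and the 0.03 of Ndufb8 (SE 0.30).

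The paralogs Ndufa4 and Ndufa4l2 are named after complex I, although Ndufa4 is now placed in complex IV. Ndufa4 was at 8.77, 9.21, 9.12 and 9.16 in SF1+ and at 9.39, 9.75 and 9.21 in Wnt+. The lowest Wnt+ array only just passed the highest SF1+ array, and the difference was 0.38 (SE 0.16, limma adjusted p = 0.325). Ndufa4l2, known as a hypoxia-induced gene, was at 3.79, 4.01, 5.63 and 3.91 in SF1+ and at 4.94, 3.76 and 4.30 in Wnt+. Here 1 SF1+ array, replicate 3, was the highest of the 7, and the difference of -0.00 between the means (SE 0.50) was 0.43 without it. SF1+ replicate 3 also had the highest mean of the 6 pericyte markers at 4.54, against 3.71 to 4.28 in the other SF1+ arrays, and the highest Wnt+ array, replicate 1, was likewise the highest of its group there at 4.34. The part of pericytes in the Ndufa4l2 values was not tested.

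Complex II, the succinate dehydrogenase shared with the tricarboxylic acid cycle, had positive differences in 4 of 4 members with a median of 0.26. Sdhb, the iron-sulfur subunit, was at 6.34, 6.91, 6.84 and 6.79 in SF1+ and at 6.99, 7.64 and 7.12 in Wnt+. Its groups did not overlap and differed by 0.53 (SE 0.20, limma adjusted p = 0.273), and Sdhb was the 1 member with an unadjusted p under 0.05. Sdhc, a membrane anchor, also had its groups apart, at 7.18, 7.30, 7.37 and 7.34 against 7.47, 8.13 and 7.41 (difference 0.37, SE 0.18, limma adjusted p = 0.386). Sdha, the flavoprotein that binds succinate, differed by 0.12 (SE 0.21) and by -0.16 without Wnt+ replicate 2. The other anchor, Sdhd, differed by 0.14 (SE 0.27) and by -0.01 without SF1+ replicate 1.

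Complex III, cytochrome bc1, had positive differences in 8 of 8 members with a median of 0.37. The groups stood apart in 0 of 8, against 7.04% of all genes. Uqcr11, a small subunit, showed the largest gap, with SF1+ at 6.35, 7.52, 7.50 and 7.49 and Wnt+ at 8.15, 8.50 and 7.51. The difference of 0.84 (SE 0.36, limma adjusted p = 0.333) was 0.55 without the low SF1+ replicate 1, and Wnt+ replicate 3 was level with the other SF1+ arrays. The core proteins Uqcrc1 and Uqcrc2, on the matrix side, were the 2 members with an unadjusted p under 0.05. Uqcrc1 was at 5.83, 5.98, 5.89 and 6.22 in SF1+ and at 6.20, 6.72 and 6.22 in Wnt+ (difference 0.40, SE 0.16, limma adjusted p = 0.299). Uqcrc2 was at 6.43, 6.84, 6.58 and 6.79 in SF1+ and at 7.07, 7.64 and 6.78 in Wnt+ (difference 0.50, SE 0.21, limma adjusted p = 0.317). In both genes Wnt+ replicate 2 was highest and the lowest Wnt+ arrays lay among the highest SF1+ arrays. Uqcrfs1, the Rieske iron-sulfur protein, differed by 0.33 (SE 0.26) and by 0.02 without Wnt+ replicate 2. Of the small subunits, Uqcr10 differed by 0.48 (SE 0.25), Uqcrq by 0.29 (SE 0.21), Uqcrh, the hinge protein, by 0.17 (SE 0.30) and Uqcrb by 0.12 (SE 0.17).

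In complex IV, cytochrome c oxidase, the difference was positive in 13 of 15 members, with a median of 0.20, and 3 of the 15 had an unadjusted p under 0.05. Cox6c was at 9.31, 9.37, 9.22 and 9.27 in SF1+ and at 9.41, 9.69 and 9.54 in Wnt+, and Cox7c at 9.18, 9.18, 9.28 and 9.32 against 9.46, 9.51 and 9.36. Both are small subunits of the enzyme in all tissues, and in both the groups stood apart by a narrow margin. The differences were 0.25 for Cox6c (SE 0.09, limma adjusted p = 0.251) and 0.20 for Cox7c (SE 0.08, limma adjusted p = 0.285). Cox5b, Cox6a1, Cox6b1, Cox7b and Cox8a, the widely expressed forms, differed by 0.22 (SE 0.12), 0.15 (SE 0.10), 0.20 (SE 0.16), 0.18 (SE 0.20) and 0.22 (SE 0.17). Cox5a differed by 0.04 (SE 0.37), and by -0.23 without Wnt+ replicate 2.

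Among paralogs, Cox7a1, the form of heart, skeletal muscle and brown fat, had the largest difference of all 81 members. Its SF1+ arrays were at 4.27, 4.62, 4.43 and 4.18 and its Wnt+ arrays at 5.36, 6.56 and 4.55. Wnt+ replicates 1 and 2 were far above SF1+, and replicate 3 was below the highest SF1+ array. The difference was 1.12 (SE 0.43, limma adjusted p = 0.279), and it was 0.58 without Wnt+ replicate 2. Its ubiquitous counterpart Cox7a2 differed by 0.33 (SE 0.28), and Cox7a2l by 0.14 (SE 0.11). A second cluster of Cox7a2l, about as bright, went the other way and differed by -0.07 (SE 0.20). Markers of brown fat and striated muscle, added after values were seen, were near the floor of the arrays: the means of 4 brown fat markers were 2.20 to 2.38 over the 7 arrays, with Ucp1 at 2.07 to 2.23, and those of 6 striated muscle markers 2.78 to 2.94.

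Cox8b, the muscle form of subunit 8, varied most of all members, with SF1+ at 5.93, 4.96, 7.36 and 6.50 and Wnt+ at 8.27, 5.83 and 6.74. The spread within a group was larger than the difference of 0.76 (SE 0.71). Cox6b2, the testis form of subunit 6b, was at 3.19, 3.28, 3.52 and 3.50 in SF1+ and at 3.02, 3.98 and 5.36 in Wnt+. Wnt+ replicate 3 alone stood high, and Wnt+ replicate 1 was the lowest array (difference 0.75, SE 0.49). Cox7b2 and Cox8c, further testis forms, were below the median level of all genes in every array, at 2.04 to 2.33 and 2.55 to 2.83, and differed by -0.02 and -0.05. Cox6a2, the muscle paralog of Cox6a1 that was not among the 81 genes, ran the other way, at 4.22, 5.53, 5.48 and 5.53 in SF1+ and at 2.76, 3.10 and 3.52 in Wnt+. All its Wnt+ arrays were below SF1+ (difference -2.06, SE 0.36, limma adjusted p = 0.0855). In plasmacytoid dendritic cells Cox6a2 is a known marker gene, and Siglech, another marker of those cells, was at 6.43 to 6.84 in SF1+ and 3.11 to 3.43 in Wnt+. The part of those cells in the Cox6a2 values was not tested.

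Complex V, the ATP synthase, had positive differences in 15 of 17 members with a median of 0.27. Of the 17, 1 (5.88%) was higher at an unadjusted p under 0.05, not more than the 7.61% of all genes. That member was Atp5d, the delta subunit of the central stalk, which was at 7.57, 7.58, 7.73 and 7.58 in SF1+ and at 8.06, 8.41 and 7.76 in Wnt+. The groups stood apart, though Wnt+ replicate 3 only just passed SF1+ replicate 3 (difference 0.46, SE 0.15, limma adjusted p = 0.219). Atp5o, which joins the stator to the catalytic head, and Atp5j2, subunit f of the membrane part, also had no overlap. Groups were thus apart in 3 of 17 (17.6%), against 7.04% of all genes. Atp5o was at 7.45, 8.04, 8.01 and 7.92 in SF1+ and at 8.06, 8.64 and 8.13 in Wnt+ (difference 0.42, SE 0.20), and Atp5j2 at 8.41, 8.94, 9.02 and 9.02 against 9.07, 9.31 and 9.12 (difference 0.32, SE 0.17). Limma adjusted p was 0.378 and 0.437.

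Other subunits of the ATP synthase overlapped between the groups. Atp5b, the catalytic beta subunit, was at 8.54, 8.80, 8.76 and 8.65 in SF1+ and at 8.52, 9.15 and 8.41 in Wnt+. Its Wnt+ arrays held both the highest and the lowest value, and the difference was 0.01 (SE 0.19). Atp5a1, the alpha subunit, differed by 0.27 (SE 0.22) and Atp5c1, the gamma subunit, by 0.19 (SE 0.18), the latter by -0.01 without Wnt+ replicate 2. The 3 genes that encode the same c subunit of the rotor differed by 0.18 (Atp5g1, SE 0.19), -0.00 (Atp5g2, SE 0.27) and 0.35 (Atp5g3, SE 0.19), with no adjusted p under 0.458. Atp5l, subunit g, had 6 clusters, which differed by 0.27 to 0.31. Atp5s and Atp5sl match the Atp5 symbol but are not subunits: RefSeq names them Dmac2l and Dmac2, and the latter is an assembly factor of complex I. They differed by 0.06 (SE 0.11) and -0.33 (SE 0.37), and Atp5sl was the lowest of all 81.

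Genes around the complexes were taken from textbook lists and described by counts only. Beside these counts, 7.61% of all genes were higher at an unadjusted p under 0.05, and 11.9% of those at or above the median level. Of 12 further genes of the chain whose symbols the rule did not match, 10 had positive differences, with a median of 0.46. At an unadjusted p under 0.05, 5 (41.7%) were higher. Cyc1, the cytochrome c1 subunit of complex III, differed by 0.53 (SE 0.19), Atpif1, the inhibitor of the ATP synthase, by 0.41 (SE 0.13), Etfdh, which feeds electrons from fatty acids to ubiquinone, by 0.59 (SE 0.20) and Usmg5, a small ATP synthase subunit, by 0.56 (SE 0.21), with limma adjusted p from 0.195 to 0.280. Of 41 assembly factors measured, 34 were positive with a median of 0.28. At an unadjusted p under 0.05, 5 (12.2%) were higher, near the share of the brighter genes. The groups were apart in 3 (7.32%), against 7.04% of all genes. The gene for the complex II assembly factor Sdhaf4, under its older symbol 1110058L19Rik, differed most among the 4 with the smallest p, by 0.92 (SE 0.21, limma adjusted p = 0.126). Genes of the tricarboxylic acid cycle were positive in 19 of 19 with a median of 0.35, and 5 (26.3%) had an unadjusted p under 0.05. Fumarase (Fh1) led them and differed by 1.01 (SE 0.28, limma adjusted p = 0.164). The subunits encoded by mitochondrial DNA were not analysed here.

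Proteins of the mitochondrial ribosome, which makes the mitochondrially encoded subunits, were positive in 66 of 75 with a median of 0.29. Of them, 13 (17.3%) were higher at an unadjusted p under 0.05. In Mrpl28 the difference was 0.68 (SE 0.15, limma adjusted p = 0.116) and in Mrps11 0.88 (SE 0.21, limma adjusted p = 0.130). Proteins of the cytosolic ribosome were positive in 39 of 80, with a median of -0.00 and 0 at an unadjusted p under 0.05 in either direction with limma. Glycolysis genes were positive in 12 of 17, with a median of 0.29. At an unadjusted p under 0.05, 5 of them (29.4%) were higher and 1 lower, and the share of the 81 members higher was 23.5%. Pgam1 differed by 0.77 (SE 0.17, limma adjusted p = 0.118), Aldoa by 0.45 (SE 0.13) and Hk1, the first enzyme, by -0.37 (SE 0.10). Wnt+ replicate 2 was the highest of the 7 arrays in the mean of the tricarboxylic acid cycle list (6.74, against 5.63 to 5.98 in the others), of the mitochondrial ribosome list (6.03, against 5.12 to 5.39) and of the glycolysis list (6.50, against 5.84 to 6.01). For the cytosolic ribosome its mean of 9.34 lay within the SF1+ range of 9.06 to 9.35. SF1+ replicate 1, the lowest array for the respiratory genes, was also the lowest of the 7 for the cytosolic ribosome at 9.06 and for the mitochondrial ribosome at 5.12. It was the lowest SF1+ array in 62 of 80 cytosolic ribosome genes, against 6007 of 20719 genes.

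Regulators of mitochondrial biogenesis did not share the direction of the subunits. Of 18 measured, 7 had positive differences and the median was -0.09. At an unadjusted p under 0.05 there were 2 higher (11.1%, against 7.61% of all genes) and 2 lower. Gabpb1, the partner of GABPA, was at 3.98, 4.37, 4.75 and 3.87 in SF1+ and at 3.36, 3.41 and 3.50 in Wnt+, with no overlap and a difference of -0.82 (SE 0.21, limma adjusted p = 0.150). Nrf1 was lower by a small amount without overlap (difference -0.24, SE 0.09, limma adjusted p = 0.278). Gabpa and Yy1, whose motifs were searched above, differed by -0.28 (SE 0.14) and -0.35 (SE 0.16). Tfb1m and Tfb2m, factors of mitochondrial RNA modification and transcription, differed by 0.36 (SE 0.15) and 0.59 (SE 0.24). Ppargc1a and Esrra, a coactivator and a nuclear receptor that drive respiratory genes, were both at low levels and differed by 0.15 (SE 0.16) and -0.13 (SE 0.12). Tfam, which packages mitochondrial DNA, differed by 0.05 (SE 0.20).

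The arrays' cell-type markers moved with some features of the respiratory genes and not with others. The mean of the cortex markers was 8.01, 7.37, 7.25 and 7.65 in SF1+ and 8.46, 9.05 and 8.67 in Wnt+. Wnt+ replicate 2 was thus highest for both, and it had the lowest mean of the endothelial markers, 5.36 against 7.45 and 6.63 in the other Wnt+ arrays. SF1+ replicate 1 was the lowest array for the respiratory genes but the highest of SF1+ for the cortex markers. Wnt+ replicate 3 had higher cortex markers than any SF1+ array, while its mean over the 81 members lay within the SF1+ range. For the chromaffin markers Wnt+ replicate 2 was the lowest of its group, at 5.65 against 6.82 and 6.58. The part of cell composition in the respiratory difference was not tested.

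**Figure D4:**
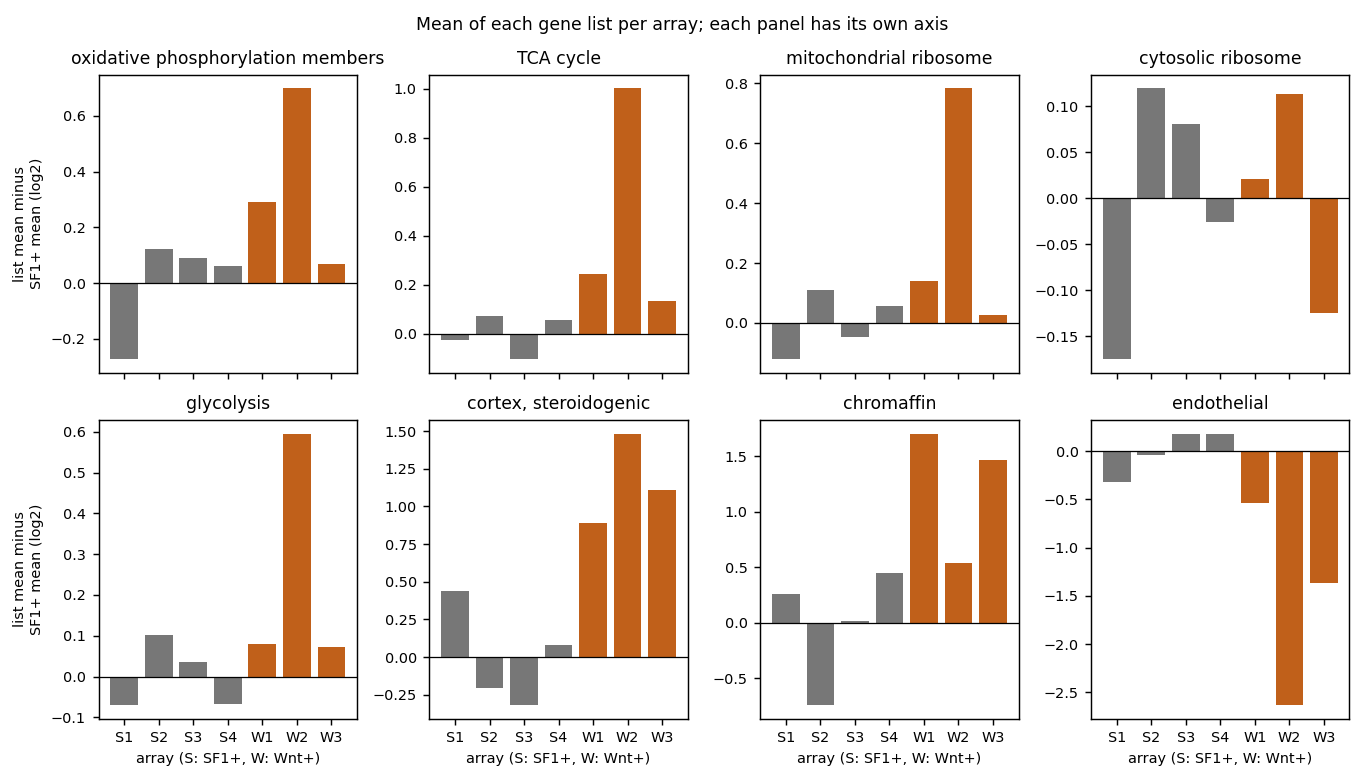
Mean log2 value of the 81 members and of 7 other gene lists in each array, minus the mean of the 4 SF1+ arrays (vertical axis, with its own scale in each panel; S1 to S4 are SF1+ and W1 to W3 Wnt+ replicates). Wnt+ replicate 2 is the highest bar for the members, the tricarboxylic acid cycle, the mitochondrial ribosome, glycolysis and the cortex markers, and the lowest for the endothelial markers.

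The same table held a second readout, from another experiment: a fold change and paired p-value for Bio over vehicle, in tumor cell lines of the mouse adrenal cortex. In the authors' deposited table, 50 of the 81 members had a fold above 1 (46.1% of all genes), with a median fold of 1.02 and a range from 0.825 to 1.33. At the authors' deposited unadjusted p under 0.05, 20 members were higher and 5 lower, where 18.2% of all genes in that deposited table were higher and 17.3% lower. By complex, the authors' deposited folds were above 1 in 29 of 37 members of complex I, 3 of 4 of complex II, 5 of 8 of complex III, 5 of 15 of complex IV and 8 of 17 of complex V. The largest deposited fold of the authors was that of Uqcrq, a small complex III subunit, at 1.33 (p = 0.00165), and the lowest that of Ndufa1, at 0.825 (p = 0.107). Of the 19 members with an unadjusted p under 0.05 in the sorted cells, 11 had an authors' deposited fold above 1. The sample values behind these columns were not analysed here.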

How the data were processed

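RNA of sorted GFP-positive adrenal cells was measured on 7 arrays (SF1+ 4, Wnt+ 3), grouped by sample title. Per the submitters' processing notes and the file headers, the authors deposited log2 values per transcript cluster made with RMA in the oligo package, whose quantile normalisation hides any change in the total RNA of a cell and compresses dim genes near the floor. For software versions and genome build, the record is: not given in the sources used here. The authors' deposited table also gives a linear fold and an unadjusted p-value of a test of the groups, and the same with a paired p-value for a separate experiment. Of 28944 clusters, 23812 had a symbol. The highest-mean cluster per symbol left 20719 genes, with no filter on dim genes. All 81 members matched a RefSeq gene table (GRCm38.p6), which renamed 3. One member enters the counts and fits, but its own values are not reported here. In a sheet used for drawing, 7 per-sample columns were not used. The array medians over genes were 3.13 to 3.23. Precision is limited by the number of arrays.

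The limma package (3.58.1, R 4.3.3) gave the differences, from lmFit and eBayes with 1 group coefficient. Its p-values were adjusted over all 20719 genes (Benjamini-Hochberg), and the threshold was 0.05. All tests were two-sided, a standard error is that of the moderated limma fit, and the limma script was tested on simulated data. No scan date or batch was used, and replicates are independent sorts per the labels. The alternatives tried were: each array left out in turn, a replicate block, genes under the median level left out, array quality weights, median-centring, further quantile normalisation, moderation with trend and robustness, every cluster, the mean over the clusters of a gene, the authors' p-values and the series matrix values. The members, the lists, the tests and the rule for named genes were chosen with earlier results of these data known. The rule took the 5 members of smallest p per complex (4 in complex II), the highest and lowest difference of each complex, core subunits and paralog groups by textbook role, and up to 4 genes of smallest p per list. Other members and genes named were chosen after their values were seen, as were the brown fat, muscle and pericyte lists. Plots used matplotlib 3.10.9 (Python 3.11.15).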

Additional observations from a re-analysis of the deposited data

Results flagged for a closer look

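Of 58 groups of SF1+ values tested for 1 array that stands far from the other 3 (Dixon's test on named members and complex means), 9 did so, where chance gives about 1 in 20. Replicate 1 was the low array in 7 of the 9. It was at 6.18 for Ndufa7 (others 6.58 to 6.66), 7.57 for Uqcr10 (others 8.27 to 8.32), 6.35 for Uqcr11 (others 7.49 to 7.52), 8.82 for Cox6b1 (others 9.10 to 9.16) and 8.41 for Atp5j2 (others 8.94 to 9.02). Its mean was 6.80 over complex III (others 7.29 to 7.36) and 6.70 over all members (others 7.04 to 7.10). Replicate 3 was the high array for Ndufa4l2, at 5.63 (others 3.79 to 4.01), and for Atp5d, at 7.73 (others 7.57 to 7.58). The 7 low values come from 1 array and are not independent of each other. Replicate 1 was also the lowest of the 7 arrays in the mean of the cytosolic ribosome list, at 9.06 (other SF1+ arrays 9.20 to 9.35), and of the mitochondrial ribosome list, at 5.12, so its low values are not confined to the respiratory genes. What set that array apart was not tested. The Wnt+ group, with 3 arrays, was too small for this test.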

How the results depend on the processing

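In every alternative run, 0 members passed the adjusted threshold of limma or of the authors' p-values. In several runs almost none of the 20719 genes passed. These were 0 with the replicate block or the authors' p-values, 1 without SF1+ replicate 2 or 3, and 2 without Wnt+ replicate 3. There the 0 says little about the members, and in the main fit, with 0.256% of all genes passing, it is also near the share of all genes. The largest share of genes passing was 2.13%, with genes under the median level left out, still too low a share for 0 members to stand out. The mean difference of all members stayed positive, from 0.18 without Wnt+ replicate 2 to 0.50 without Wnt+ replicate 3, and so did that of each complex, complex V with the lowest value of 0.03 and complex II with 0.09 without Wnt+ replicate 2. The count of members higher at an unadjusted p under 0.05 was 19, and it ran from 6 to 40 when 1 array was left out. It was 34 after further quantile normalisation, where 8.45% of all genes were higher by that measure. With the authors' p-values it was 9 of 81, against 6.78% of all genes. A replicate block gave 16 such members, against 5.70% of all genes, a lowest limma adjusted p of 0.272 and a mean difference of 0.37. Deviations of same-numbered arrays correlated at -0.22, 0.03 and -0.21, and those of differently numbered arrays at -0.20 to 0.30. With so few arrays, these values cannot show whether the numbers pair the samples.

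Several named members turned sign. The difference of Ndufa4l2 was 0.0051 after median-centring, 0.028 after further quantile normalisation, 0.036 with array weights, and -0.30 to 0.43 when 1 array was left out. The difference of Cox5a was -0.046 with array weights and -0.23 to 0.41 with 1 array left out, and the difference of Atp5b was -0.0066 with the replicate block, -0.035 with array weights and -0.22 to 0.15 with 1 array left out. The difference of Atp5g2 was 0.092 with the replicate block, 0.0044 after median-centring, 0.049 after further quantile normalisation, 0.0096 as a mean of its clusters and -0.22 to 0.24 with 1 array left out. Others turned only when 1 array was left out, with ranges of -0.12 to 0.56 for Ndufs1, -0.13 to 0.72 for Ndufs8, -0.16 to 0.28 for Sdha, -0.0057 to 0.38 for Sdhd, -0.052 to 0.23 for Uqcrb, -0.050 to 0.045 for Cox7b2, -0.27 to 0.20 for Ndufb8, -0.088 to 0.46 for Uqcrh, -0.0061 to 0.35 for Atp5c1 and -0.017 to 0.15 for Atp5s. The cause of these turns was not tested.

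Signals near the floor of the arrays (Cox7b2, Cox8c and Atp5s) limit what can be seen of those genes, and a p over the threshold does not show that a gene did not differ.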

Other observations

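Of the 81 members, 19 had more than 1 transcript cluster. Their 26 further clusters differed by a median of 0.24, from -0.07 to 1.11, where the clusters used for the same genes differed by a median of 0.27, and 24 of the 26 had the sign of the cluster used. Whether each cluster measures its own locus or a near-identical copy was not tested. The 62 members with 1 cluster had a median of 0.34, and 58 of them were positive.

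The difference was present over the range of levels. In the 27 members with the lowest mean level, 23 were positive with a median of 0.33, in the middle 27 these were 26 and 0.43, and in the 27 with the highest level 27 and 0.29.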
